A study of Rattus norvegicus with 18 samples.

Results

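The genes described here are the enzymes that build cholesterol together with genes that the sterol regulatory element-binding proteins (SREBPs) control or are controlled by, measured in the colonic mucosa of rats given the colon carcinogen azoxymethane. The group was listed by function and holds 35 genes. A gene was taken when at least 1 probe set of the array was annotated to its symbol and to no other symbol. Of the 35 genes, 33 had such a probe set, 55 probe sets in all, and 52 of these were bright enough to be tested. All 33 genes kept at least 1 tested probe set, out of 11407 genes tested over the arrays. The 3 probe sets that were too dim belonged to Mvk, Lss and Srebf2. Expression of Hmgcs1 and Npc1 is not analysed here, and only their promoters are counted.

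The samples came from 9 male Sprague Dawley rats, numbered 1 to 8 and 10, and each rat gave 1 array of proximal colon and 1 array of distal colon. Body weight was about 245 ± 14.5 g, and the age is not given in the sources used here. A modified AIN-93G diet was fed to every rat, and so to both groups of arrays, over 10 days. Azoxymethane was then injected under the skin at 15 mg per kg, and the rats were killed 6 h afterwards. Azoxymethane alkylates DNA once it has been activated in the body. No untreated rats were among the samples, so every value describes the 2 regions after the injection. The submitters mention 2 allocation groups without saying which rat belonged to which, and these were not compared. Mucosa was scraped from 4 cm of each region, so each array holds a mixture of cells. In such bulk samples, fewer cells of a type and less RNA per cell cannot be told apart.

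Cholesterol is built from acetyl-CoA through mevalonate. Mevalonate is phosphorylated and turned into isoprenoid units, these are joined into farnesyl diphosphate and squalene, and squalene is closed into lanosterol and trimmed to cholesterol. Farnesyl diphosphate also feeds branches that do not end in sterols, among them the lipid anchors of proteins. When sterols in the endoplasmic reticulum fall, the escort protein SCAP carries the SREBPs to the Golgi, where they are cut and released to switch on the genes of this pathway, and when sterols are plentiful the INSIG proteins hold SCAP back. SREBPs also switch on enzymes that make and desaturate fatty acids. In the colon, renewal of the epithelium needs a supply of membrane sterol.

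SREBPs are weak activators alone and work at promoters together with NF-Y, which binds CCAAT, and Sp1, which binds GGGCGG. RefSeq promoters (assembly GRCr8, 250 bases before to 50 bases after the start of the gene) were held for 28 of the 35 genes, 29 promoters in all. CCAAT, read on both strands, was present in 22 of the 29 (75.9%), against 37.5% of all 33469 promoters. GGGCGG, also on both strands, was present in 24 of the 29 (82.8%), against 33.1% of all promoters. For both motifs, all promoters were taken without matching them to the listed genes in base content, and the shares were not tested. Among the 15 promoters of isoprenoid and sterol enzymes, 13 held CCAAT and 12 held GGGCGG. Among the 14 other promoters of the listed genes, 9 held CCAAT and 12 held GGGCGG, so GGGCGG did not set the enzymes apart. The core letters of a sterol regulatory element, TCACNCCAC on both strands, were in 0 of the 29 and in 1.12% of all promoters, which says only that these letters are not in this window. Since none matched, the 4 promoters shown here were chosen after their expression values were seen, namely those of the 3 isoprenoid and sterol enzymes with the largest proximal excess that had an entry, and that of the sterol enzyme that was higher in distal colon. Fdft1 had no entry. Each is written from 5′ to 3′ on the strand of the gene, and capitals mark CCAAT or GGGCGG on either strand, none of which overlap. They are Msmo1 at chr16:29746863-29747162 (plus strand), Idi1 at chr17:66547475-66547774 (minus strand), Fdps at chr2:176804767-176805066 (minus strand) and Tm7sf2 at chr1:212789492-212789791 (minus strand).
Msmo1: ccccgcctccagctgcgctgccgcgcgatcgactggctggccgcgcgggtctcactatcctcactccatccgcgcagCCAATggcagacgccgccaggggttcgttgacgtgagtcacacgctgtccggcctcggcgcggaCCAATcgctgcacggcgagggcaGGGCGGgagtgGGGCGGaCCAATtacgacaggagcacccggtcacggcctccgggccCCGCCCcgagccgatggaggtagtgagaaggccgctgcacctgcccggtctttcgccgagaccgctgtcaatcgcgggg
Idi1: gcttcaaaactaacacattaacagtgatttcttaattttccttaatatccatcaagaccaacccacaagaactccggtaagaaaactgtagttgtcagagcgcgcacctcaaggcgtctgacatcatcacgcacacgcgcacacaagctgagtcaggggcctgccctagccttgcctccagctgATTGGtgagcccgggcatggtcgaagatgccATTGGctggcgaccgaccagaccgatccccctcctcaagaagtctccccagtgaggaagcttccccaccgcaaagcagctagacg
Fdps: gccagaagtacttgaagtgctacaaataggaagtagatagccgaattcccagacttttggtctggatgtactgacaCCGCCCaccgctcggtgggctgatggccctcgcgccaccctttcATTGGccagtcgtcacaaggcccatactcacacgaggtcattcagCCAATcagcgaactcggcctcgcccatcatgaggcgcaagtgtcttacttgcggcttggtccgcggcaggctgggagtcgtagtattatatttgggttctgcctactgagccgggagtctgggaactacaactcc
Tm7sf2: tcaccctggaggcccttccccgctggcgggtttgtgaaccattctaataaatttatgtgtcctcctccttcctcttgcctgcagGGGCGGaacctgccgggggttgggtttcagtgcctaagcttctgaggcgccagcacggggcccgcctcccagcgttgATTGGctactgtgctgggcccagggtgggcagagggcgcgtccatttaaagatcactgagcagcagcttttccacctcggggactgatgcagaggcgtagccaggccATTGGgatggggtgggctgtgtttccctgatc
The Msmo1 promoter had 3 CCAAT and 3 GGGCGG matches, and the Idi1 promoter had 2 CCAAT matches and 0 of GGGCGG. Fdps and Tm7sf2 each had 2 CCAAT matches and 1 GGGCGG match, although these genes differed between the regions in opposite directions. A match is a description of the letters and shows no binding.

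The arrays were scrapings rich in epithelium, with a mean log2 signal over 10 epithelial marker genes of 12.73 to 13.01 in proximal and 12.77 to 12.92 in distal colon. Of those 10, only Vil1 (-0.43, distal minus proximal) and Krt20 (-0.49) differed, both higher in proximal colon. The mean of 10 smooth muscle markers varied far more, from 6.69 to 12.21 in proximal and from 6.49 to 9.80 in distal colon, and was highest in rat 3 proximal (12.21), rat 3 distal (9.80) and rat 7 distal (9.76). Of the markers of smooth muscle (10), fibroblasts (7), endothelium (5), leukocytes (7) and enteric nerves and glia (3) that were tested, 0 passed the limma test between the regions and 0 had an unadjusted p below 0.05. Their median differences were -0.40, -0.77, -0.23, 0.12 and -0.30.

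The comparison of distal with proximal colon asks how the pathway differs along the colon after azoxymethane. Signals are given as log2 of the signal plus 16 after quantile normalization, so a difference of 1 is 2-fold on that scale. Each difference is distal minus proximal over 9 rats per region, with limma's standard error, which also draws on the variance of other probe sets. A gene passed at a limma adjusted p below 0.05. This main fit did not use the pairing of the 2 arrays of a rat. With the rat as a block, 13 members passed towards proximal and 5 towards distal colon, against 17.4% and 19.5% of all genes. Of the 33 genes, 10 were higher in proximal colon (30.3%), against 14.5% of all genes, and 5 were higher in distal colon (15.2%), against 16.2% of all genes. Together 15 passed (45.5%), against 30.8% of all genes. The median difference was -0.11 over the 33 genes and 0.01 over all genes. With the deposited scaling, which moves the median of all genes to -0.10, the proximal side held 11 members and 1552 of all genes, and the distal side 3 members and 451 genes. Of the members that passed, 66.7% were higher in proximal colon, against 47.2% of all genes that passed. With the deposited scaling these shares were 78.6% and 77.5%, so the members then leaned to proximal colon about as much as all genes that passed.

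The counts by role stand beside shares of all genes of 14.5% towards proximal and 16.2% towards distal colon. Of the 17 isoprenoid and sterol enzymes, 7 passed towards proximal colon (41.2%) and 1 towards distal colon (5.88%), with a median difference of -0.30. None of the 5 genes of SREBP control passed, and 2 of the 4 genes listed under cholesterol handling passed in each direction. Of the 7 fatty acid genes, 1 passed towards proximal (14.3%) and 2 towards distal colon (28.6%). These roles hold few genes, and their counts were not tested against the shares of all genes. All proximal values lay above all distal values for 4 members (Ggps1, Acat2, Soat1 and Elovl6), a pattern seen in 3.67% of all genes. All distal values lay above all proximal values for 2 members (Npc2 and Acly), against 3.22% of all genes. The direction was the same in all 9 rats for 16 of the 33 members, against 21.5% of all genes.

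**Figure D1:**
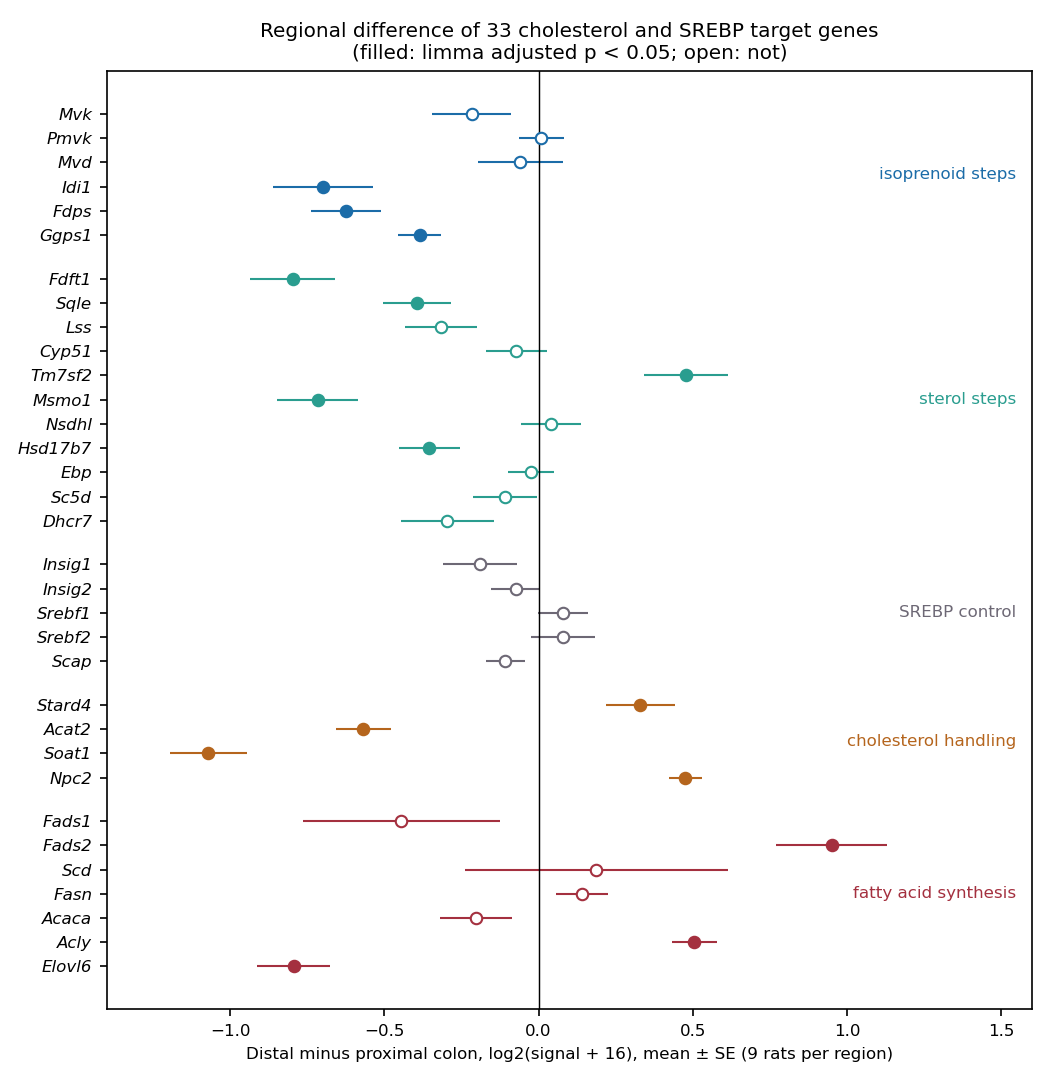
Distal minus proximal difference of the 33 genes on the x axis, in log2(signal + 16), as mean ± limma's SE with 9 rats per region, with genes on the y axis grouped by role. Filled points passed a limma adjusted p of 0.05. Among isoprenoid and sterol steps 7 filled points lie left of 0 and 1 filled point, Tm7sf2, lies right of it, and the 5 points of SREBP control are open.

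Of the 6 isoprenoid enzymes, the first 3 did not pass and the last 3 did. Mvk and Pmvk phosphorylate mevalonate and Mvd makes the first isoprenoid unit. Their differences were -0.22 ± 0.13 (adjusted p = 0.224), 0.01 ± 0.07 (0.944) and -0.06 ± 0.14 (0.791). Idi1, which interconverts the isoprenoid units, had a signal of 9.38 at the lowest, 9.62 at the median and 10.25 at the highest in proximal colon, and of 8.39, 9.10 and 9.78 in distal colon. The ranges overlapped, but each of the 9 rats was higher in proximal colon, with differences from -1.07 to -0.11, and the mean difference of -0.70 ± 0.16 (1.62-fold, adjusted p = 0.00302) passed. The other tested Idi1 probe set gave -0.85 ± 0.20 (0.00301).

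Fdps joins the units into farnesyl diphosphate, the branch point of the pathway. Its signals ran from 9.97 over a median of 10.30 to 10.66 in proximal colon and from 9.18 over 9.71 to 10.24 in distal colon. Fdps was 1.54-fold higher in proximal colon (-0.62 ± 0.11, adjusted p = 0.000402), in 9 of 9 rats, with overlapping ranges. Ggps1 uses farnesyl diphosphate to make the geranylgeranyl lipid of prenylated proteins, outside the sterol branch. Its proximal signals of 7.86, 8.05 and 8.20 (lowest, median, highest) all lay above its distal signals of 7.45, 7.70 and 7.81. The difference was -0.39 ± 0.07 (1.31-fold, adjusted p = 0.000355), while the 2 dimmer Ggps1 probe sets, -0.36 ± 0.15 (0.0865) and -0.18 ± 0.12 (0.31), did not pass.

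At the entry to the sterol branch, Fdft1 (squalene synthase) showed the largest difference of the 17 enzymes. Its signal was 9.09 at the lowest, 9.55 at the median and 9.79 at the highest in proximal colon, against 8.06, 8.75 and 9.34 in distal colon. Every rat was higher in proximal colon, with differences from -1.15 to -0.21, and the mean difference was -0.80 ± 0.14 (1.74-fold, adjusted p = 0.000215). A second Fdft1 probe set gave -0.42 ± 0.11 (0.00998). Sqle, the epoxidase that follows, had proximal signals of 8.67, 8.86 and 9.13 and distal signals of 8.11, 8.38 and 9.10. Its regions overlapped through rat 4, whose distal value of 9.10 stood close to its proximal value of 9.13, and Sqle differed by -0.39 ± 0.11 (1.31-fold, adjusted p = 0.0111). This call was lost with median centring of the arrays (-0.34, adjusted p = 0.0511). Lss closes the ring to lanosterol, and it was higher in proximal colon in 9 of 9 rats but did not pass (-0.32 ± 0.12, adjusted p = 0.0501). Lss passed with the rat as a block (adjusted p = 0.00536), with the deposited scaling (-0.41, 0.0163) and with a pseudocount of 64 (0.0496). It also passed with the 50% filter (0.0417), and without rat 2 (0.0312) or rat 4 (0.0407). In the fit on means of probe sets Lss passed too (0.0485), but its difference stayed at -0.32, since only 1 of its probe sets was tested.

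Among the enzymes that trim lanosterol, Msmo1, which oxidises methyl groups of the ring, differed most. Its proximal signals were 9.57, 10.01 and 10.37 and its distal signals 8.88, 9.22 and 9.87. The difference of -0.72 ± 0.13 (1.64-fold, adjusted p = 0.000399) had the same direction in all 9 rats, from -1.06 to -0.41. Hsd17b7, a ketoreductase of the same steps, had proximal signals of 8.02, 8.14 and 8.61 and distal signals of 7.53, 7.86 and 8.35. It differed by -0.35 ± 0.10 (1.28-fold, adjusted p = 0.0109) in the same direction in 9 rats. A dimmer Hsd17b7 probe set gave -0.12 ± 0.16 (0.612), and the mean of both did not pass (-0.24, adjusted p = 0.113).

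Tm7sf2, a sterol reductase that acts just after Cyp51, went the other way. Its signals were 6.95, 7.68 and 7.91 in proximal colon and 7.45, 8.13 and 8.41 in distal colon. The ranges overlapped, but each rat was higher in distal colon by a similar step, from 0.34 to 0.61. The difference was 0.48 ± 0.14 (1.39-fold, adjusted p = 0.0128). With the deposited scaling it was 0.38 and did not pass (adjusted p = 0.115).

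The remaining 5 sterol enzymes did not pass through the probe set that represented them. Cyp51, which removes a methyl group of lanosterol, gave -0.07 ± 0.10 (adjusted p = 0.636), while its second probe set gave -0.30 ± 0.11 (0.0401) and was higher in proximal colon in 9 of 9 rats. Sc5d, a desaturase near the end of the pathway, gave -0.11 ± 0.10 (0.476), with other probe sets at -0.27 ± 0.11 (0.086) and -0.32 ± 0.08 (0.00527). The mean over the probe sets of Sc5d passed (-0.23, adjusted p = 0.0241). Dhcr7, which makes cholesterol in the last step of a branch, gave -0.30 ± 0.15 (0.163) and passed only with the rat as a block (0.0424) or without rat 4 (-0.34, 0.0347). Nsdhl and Ebp, which remove methyl groups and shift a double bond, gave 0.04 ± 0.10 (0.806) and -0.02 ± 0.08 (0.847). The Nsdhl difference was near 0 and changed sign with the deposited scaling.

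**Figure D2:**
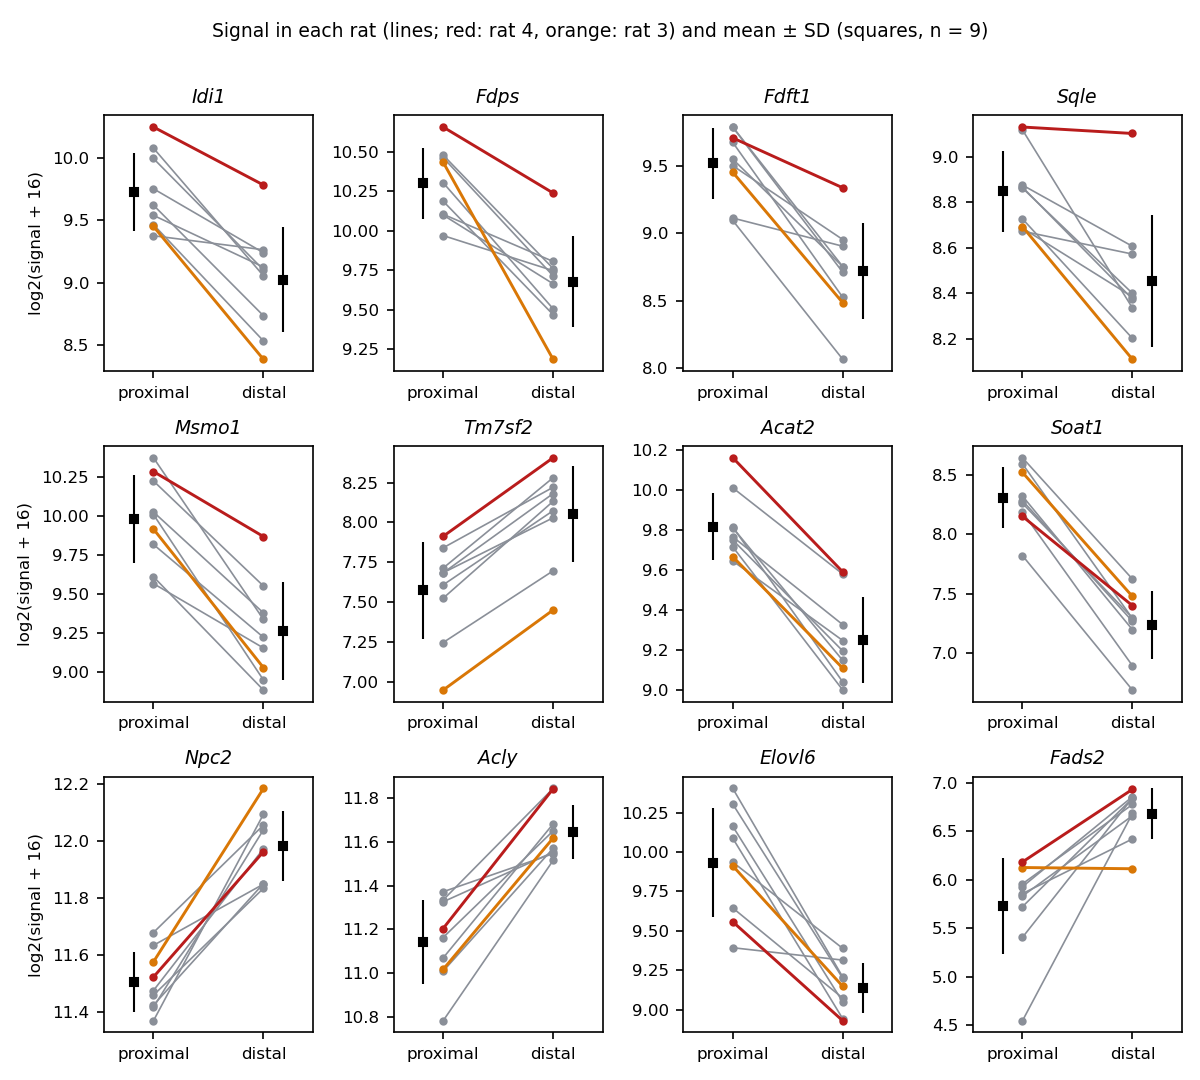
Signal of 12 genes in each rat, in log2(signal + 16) on the y axis, with lines joining the proximal and distal arrays of a rat, rat 4 in red, rat 3 in orange, and squares for the mean ± SD of 9 rats. Lines fall towards distal colon for Idi1, Fdps, Fdft1, Sqle, Msmo1, Acat2, Soat1 and Elovl6 and rise for Tm7sf2, Npc2 and Acly, while for Fads2 they rise in 8 of 9 rats.

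Among the 5 genes that sense sterols and carry the signal, 0 passed the limma test, against 30.8% of all genes. Of these 5, 0 had an unadjusted p below 0.05. Insig1, which retains SCAP and is itself an SREBP target, differed by -0.19 ± 0.12 (adjusted p = 0.258), with signals of 10.18 to 11.06 in proximal and 10.01 to 10.77 in distal colon. Insig2 differed by -0.07 ± 0.08 (0.533) and Scap, the escort, by -0.11 ± 0.06 (0.224). Srebf1 and Srebf2, which encode the SREBPs, differed by 0.08 ± 0.08 (0.506) and 0.08 ± 0.10 (0.628). The signs of Srebf1 and Srebf2 turned with the deposited scaling, and that of Scap with the mean of its probe sets. These are transcript levels, and cleavage of the SREBPs was not measured.

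All 4 genes listed under cholesterol handling passed, Soat1 and Acat2 towards proximal colon and Npc2 and Stard4 towards distal colon. Soat1 esterifies cholesterol for storage and had the largest difference of all members in the main setting, with its pseudocount of 16. Its signals were 7.82, 8.28 and 8.64 in proximal colon and 6.69, 7.29 and 7.62 in distal colon, with no overlap. Soat1 was 2.10-fold higher in proximal colon (-1.07 ± 0.12, adjusted p = 2.42e-06), and a second probe set gave -1.12 ± 0.24 (0.00147). Acat2 is the thiolase that makes acetoacetyl-CoA at the entry of the pathway, and so it supplies cholesterol synthesis rather than handling it, although it is not counted among the 17 enzymes. Its proximal signals of 9.64, 9.77 and 10.16 lay above its distal signals of 8.999, 9.19 and 9.59, and the difference was -0.57 ± 0.09 (1.48-fold, adjusted p = 8.36e-05).

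Npc2, the carrier that takes cholesterol out of lysosomes, was higher in distal colon. Its distal signals of 11.83, 11.97 and 12.18 lay above its proximal signals of 11.37, 11.48 and 11.68, and it differed by 0.48 ± 0.05 (1.39-fold, adjusted p = 1.84e-06). Stard4, which moves sterol between membranes, had proximal signals of 9.36, 9.64 and 9.82 and distal signals of 9.40, 10.14 and 10.25. It was higher in distal colon in 9 of 9 rats, by 0.01 to 0.61, and passed narrowly (0.33 ± 0.11, 1.26-fold, adjusted p = 0.0348). Its other probe sets disagreed, with 0.38 ± 0.11 (0.0167) and -0.28 ± 0.14 (0.148). Stard4 did not pass when its probe sets were averaged (0.15, adjusted p = 0.319), with the deposited scaling (0.24, 0.224), or when the 3 arrays of highest smooth muscle score (0.29, 0.101) or both proximal arrays of rats 3 and 6 (0.31, 0.0739) were left out. It was also lost when rat 1, 2, 3, 6, 7 or 10 was left out (0.29 to 0.33, adjusted p from 0.0542 to 0.0938).

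Of the fatty acid genes, Elovl6, which lengthens fatty acids to stearate, was higher in proximal colon, with signals of 9.39, 9.94 and 10.40 above distal signals of 8.93, 9.15 and 9.39. The difference was -0.79 ± 0.12 (1.73-fold, adjusted p = 4.8e-05), and a second probe set gave -0.60 ± 0.15 (0.00635). Acly, which makes cytosolic acetyl-CoA from citrate for both sterols and fatty acids, was higher in distal colon. Its distal signals of 11.52, 11.62 and 11.84 lay above its proximal signals of 10.78, 11.16 and 11.37, a difference of 0.50 ± 0.07 (1.42-fold, adjusted p = 3.41e-05).

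Fads2, a desaturase of polyunsaturated fatty acids, was higher in distal colon in 8 of 9 rats. Its signals were 4.55, 5.86 and 6.18 in proximal and 6.11, 6.78 and 6.93 in distal colon, near the level of 5.54 below which probe sets were left out. The difference was 0.95 ± 0.18 (1.93-fold, adjusted p = 0.000574). The signal was low, and the size changed with the pseudocount, with 1.27 at a pseudocount of 1 and 0.56 at 64, and the gene passed with both. Fasn, the fatty acid synthase, differed by 0.14 ± 0.09 (0.242). Acaca, the carboxylase that makes malonyl-CoA, was higher in proximal colon in 9 of 9 rats but did not pass (-0.20 ± 0.12, 0.216), except with the rat as a block (0.0146) or without rat 3 (-0.19, 0.0437).

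Scd and Fads1, both desaturases, varied widely between rats within each region. Scd ran from 6.01 over a median of 7.64 to 8.77 in proximal colon and from 6.51 over 7.30 to 9.71 in distal colon, and differed by 0.19 ± 0.43 (adjusted p = 0.787). The 3 highest distal values of Scd were 9.71 in rat 3, 9.17 in rat 2 and 8.40 in rat 10. The same 3 distal arrays had the highest mean of 5 adipocyte markers, at 9.98, 8.66 and 7.75, within a range of 5.44 to 9.98 in distal and 6.33 to 8.72 in proximal colon. In proximal colon the rats did not match in this way, since Scd was highest in rats 3, 7 and 6 (8.77, 8.44 and 8.14) and the adipocyte mean in rats 3, 10 and 8 (8.72, 8.59 and 8.55), and Scd in rat 8 was 6.94. Of those 5 markers, 1 differed between the regions, Cidec, which was higher in proximal colon (-1.08, adjusted p = 0.00854). Fads1 ran from 5.87 to 8.29 in proximal and from 5.20 to 7.28 in distal colon, and differed by -0.45 ± 0.32 (0.333). Both of its highest values were in rat 3, as were both highest values of Acaca (9.03 and 8.73). Rat 3 also had the highest adipocyte and smooth muscle marker means in both regions. The part of these cell types in the levels of Scd, Fads1 and Acaca was not tested. Without the 3 arrays of highest smooth muscle score Fads1 passed (-0.55, adjusted p = 0.047).

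Proliferation markers differed in the same direction as the isoprenoid and sterol enzymes. Of 7 tested, 5 passed towards proximal (71.4%, against 14.5% of all genes) and 0 towards distal colon. The median difference was -0.56, and the largest were those of Ccna2 (-0.91), Mki67 (-0.75) and Top2a (-0.69). Their mean log2 signal ran from 7.53 to 8.32 in proximal and from 7.02 to 7.69 in distal colon. Their part in the difference of the sterol enzymes was not tested. Without the 3 arrays of highest smooth muscle score, 7 of the 17 isoprenoid and sterol enzymes were again higher in proximal colon, against 15.4% of all genes.

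Of 62 further genes of sterol sensing, uptake, efflux, the non-sterol branches and lipid synthesis, 51 were tested, and 5 were higher in each region (19.6% together, against 30.8% of all genes). The deposited scaling gave 6 towards proximal and 1 towards distal colon, against 13.6% and 3.95% of all genes. Median centring gave 3 and 4, against 10.7% and 15.5% of all genes. In sterol sensing and turnover, 2 of 14 passed (14.3%), both higher in distal colon. They were Osbp (0.31 ± 0.06, adjusted p = 0.00122), a sterol carrier, and Mbtps1 (0.26 ± 0.06, 0.00196), the protease that makes the first cut in the SREBPs. In sterol uptake, efflux and their control by LXR, 1 of 11 passed (9.09%), the lysosomal lipase Lipa, which was higher in proximal colon (-0.30 ± 0.08, 0.011). In the non-sterol isoprenoid branch, 2 of 9 passed (22.2%). Nus1 of dolichol synthesis was higher in proximal colon (-0.49 ± 0.09, 0.000404) and the prenyltransferase subunit Fnta higher in distal colon (0.26 ± 0.06, 0.00511).

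In fatty acid and lipid synthesis, 3 of 17 passed towards proximal (17.6%) and 2 towards distal colon (11.8%), against 14.5% and 16.2% of all genes. Me1, an enzyme that supplies NADPH for lipid synthesis, had the largest difference of the 17, with 9.39 ± 0.25 in proximal colon against 7.81 ± 0.35 (SD over 9 rats) in distal colon. It was 2.99-fold higher in proximal colon (-1.58 ± 0.14, adjusted p = 4.59e-08), in 9 of 9 rats. Acss2, which makes acetyl-CoA from acetate, was higher in distal colon in 9 of 9 rats (0.46 ± 0.06, 1.23e-05), as Acly was. Slc25a1, which exports citrate from mitochondria and so feeds Acly, was higher in proximal colon (-0.27 ± 0.05, 0.000492).

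The rats also differed from each other, and rat 4 stood apart in this pathway. Its distal array held the highest of the 9 distal values for 13 of the 17 isoprenoid and sterol enzymes, whereas it was highest for 10.3% of all genes. Its proximal array was the highest for 9 of the 17, against 9.82% of all genes. In each region rat 4 was among the 3 highest rats for 14 of the 17, against 33.8% of all genes in proximal and 35.0% in distal colon, and so was rat 1 in proximal colon, for 14 of the 17 against 32.1%. This was noticed after the values were seen and has no test.

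The deviation of rat 4 from the mean of its region had a median over the 17 enzymes of 0.42 in distal and 0.28 in proximal colon. In distal colon it was 0.88 for Dhcr7, 0.76 for Idi1 and for Mvk, 0.65 for Sqle, 0.62 for Fdft1, 0.60 for Msmo1 and 0.56 for Fdps. The exceptions in distal colon were Ggps1, for which rat 4 was the lowest of the 9, and Pmvk, Sc5d and Mvd. Acat2 and Fads2 were also highest in rat 4 in both regions, but Insig1 was not, with a distal value of 10.06 that was eighth of the 9. Elovl6 in rat 4 was the lowest in distal and eighth in proximal colon. With the deposited scaling, rat 4 was highest for 9 of the 17 in distal colon, against 1.77% of all genes, and for 14 of the 17 in proximal colon, against 9.37%.

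The regional difference was counted again without these rats. Without rat 4, 10 of the 17 enzymes were higher in proximal colon in place of 7, with Mvk (-0.31, adjusted p = 0.0418), Lss (-0.34, 0.0407) and Dhcr7 (-0.34, 0.0347) added. In that fit 13.0% of all genes were higher in proximal colon. Rat 4 was picked from these same values for its high signals, which stood out more in distal colon. Leaving it out therefore lowers most distal means of these enzymes, and the added calls are no independent support. At the other end, rat 3 had the lowest proximal value for 8 of the 17, against 26.3% of all genes, and the lowest distal value for 5, against 18.5%. These counts moved with the scaling. With the deposited scaling they were 2 in proximal and 9 in distal colon, against 10.5% and 20.2% of all genes. With median centring they were 12 and 9, against 37.5% and 30.6% of all genes. Rat 3 proximal was the array with the highest smooth muscle score. Without rat 3, 7 of the 17 enzymes were higher in proximal colon, against 15.6% of all genes in that fit.

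**Figure D3:**
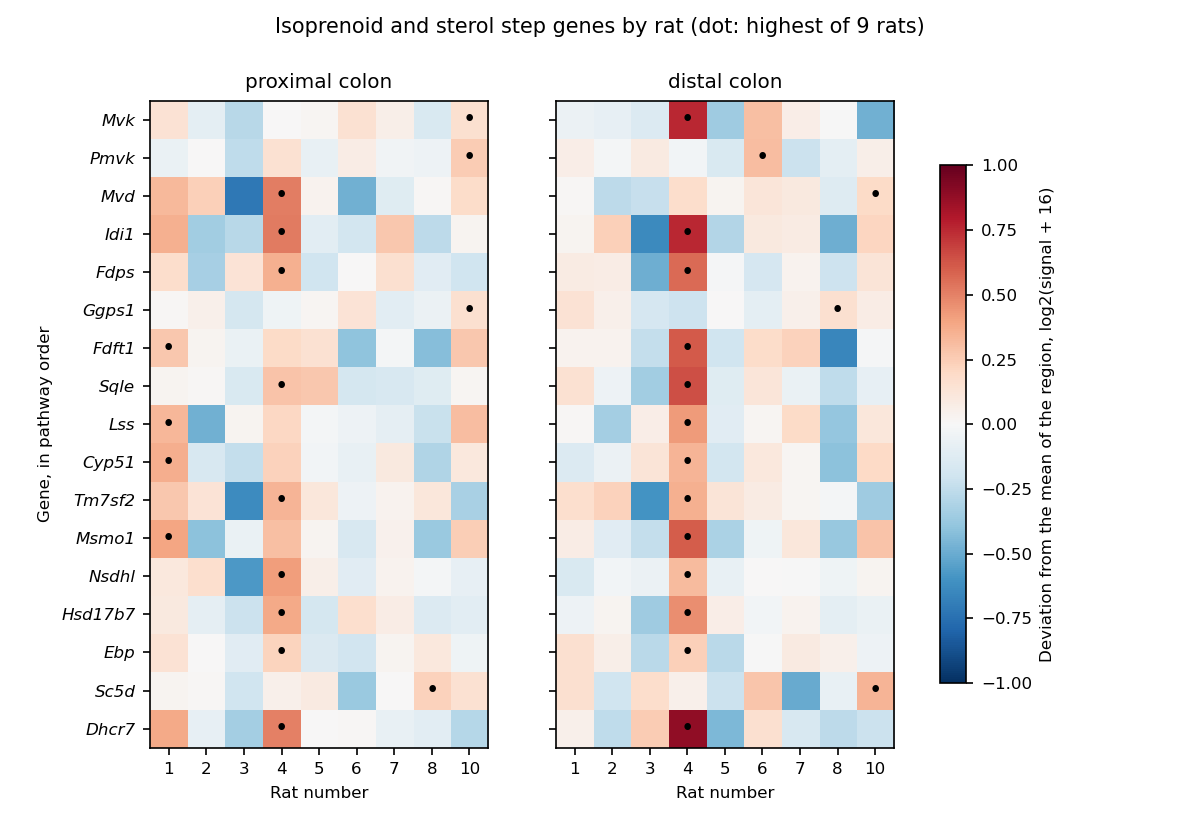
Deviation of each rat (x axis) from the mean of its region for the 17 isoprenoid and sterol enzymes (y axis, in pathway order), in log2(signal + 16) on the colour scale, with proximal colon left and distal colon right and a dot at the highest of the 9 rats. Rat 4 carries the dot for 9 genes in proximal and 13 genes in distal colon.

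Since both arrays of a rat came from the same animal, the proximal and distal values could be set against each other over the 9 rats. Pearson's r was above 0 for 27 of the 33 genes, with a median of 0.41, against 0.27 over all genes, and above 0.5 for 14 of the 33, against 27.9% of all genes. By an exact permutation of the pairings (two-sided), 10 of the 33 had a raw p below 0.05, against 13.1% of all genes. After adjustment over all 11407 genes, 0 passed, and the lowest adjusted p of a member was 0.128. The smallest p that these permutations can give is 2.76e-06. With the deposited scaling, 2 of the 33, Tm7sf2 and Dhcr7, had a raw p below 0.05. The share of all genes with that scaling is not given here, so this count has no background beside it. When the 2 rats farthest from the median proximal value were left out of each of the 10, only Ebp kept a raw p below 0.05. Fewer rats and a narrower range also raise p, so this does not show that the other relations rest on those rats.

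Tm7sf2 had the closest relation, with r = 0.96 (exact permutation p = 0.000444, adjusted p = 0.128) and Spearman's rho = 0.87 (exact p = 0.00451). Rats 3 and 10 were the lowest in both regions, and without them r was 0.74 (exact permutation p = 0.0562). Its r was 0.80 with the deposited scaling (exact permutation p = 0.0143). Ebp had r = 0.80 (exact permutation p = 0.00907, adjusted p = 0.233) and rho = 0.85 (exact p = 0.00607), and without rats 4 and 6 r was 0.92 (exact p = 0.00496). The raw p of Ebp was above 0.05 with the deposited scaling (r = 0.47, exact permutation p = 0.206). Acaca had r = 0.94 (exact permutation p = 0.00739, adjusted p = 0.223) and rho = 0.70 (exact p = 0.0433), but without rats 3 and 6 r was -0.04. Acat2 had r = 0.79 (exact p = 0.017, adjusted p = 0.282), which fell to -0.13 without rats 1 and 4. Scd, whose values ranged widest, had r = 0.36 (exact p = 0.335), and rats 6 and 7 were high in proximal and low in distal colon.

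**Figure D4:**
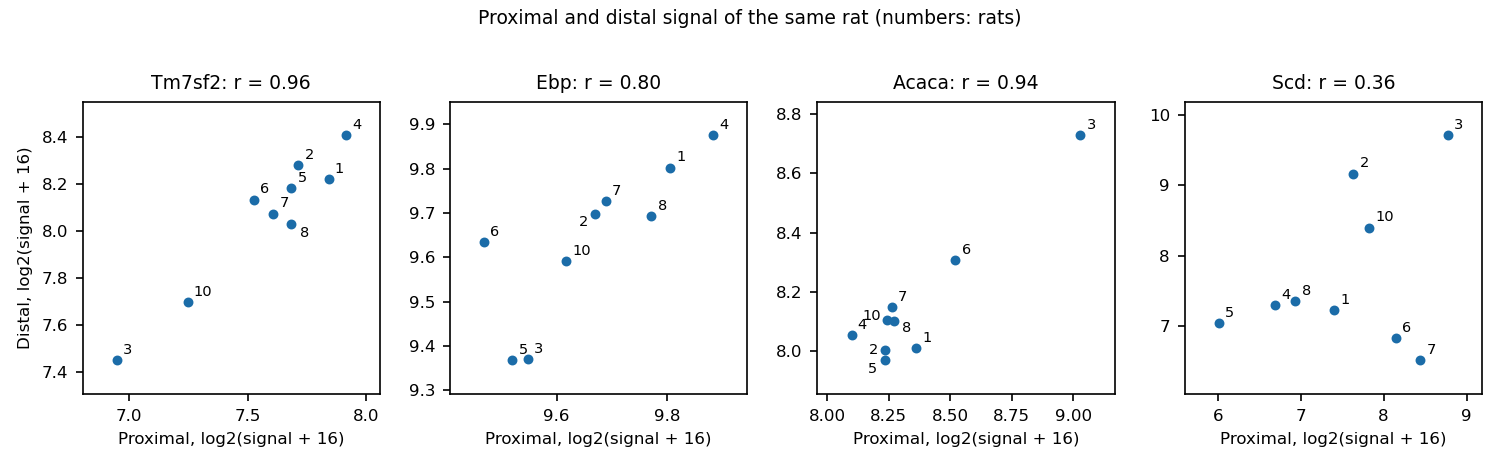
Proximal (x axis) against distal (y axis) signal of the same rat, in log2(signal + 16), for Tm7sf2, Ebp, Acaca and Scd, with points numbered by rat and Pearson's r above each plot. Acaca's r of 0.94 was -0.04 without rats 3 and 6. Ebp has r = 0.92 without rats 4 and 6 but 0.47 with the deposited scaling, which is not drawn.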

How the data were processed

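The deposited table holds linear intensities per probe set, which the authors made with MAS5, per the submitters' processing notes; no version or scaling target is given there. The trimmed mean (2% off each end) ran from 211.2 to 342.4 over the 18 arrays. The number of arrays limits the precision. From the deposited intensities, log2(signal + 16) was computed for 31042 probe sets that are not controls and quantile normalized, which removes any overall shift between regions. The pseudocount understates folds of dim genes, and every fold is on this scale. The dimmest 30% (mean below 5.54) were left out, and 21729 probe sets were tested. Symbols came from the platform annotation, which can be old, and only probe sets with 1 symbol were named. The tested probe set with the highest mean represented a gene. Control probe sets (57) were left out, and columns of no sample numbered 0.

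The regions were compared by limma (3.58.1, in R 4.3.3; lmFit and eBayes with intensity trend, two-sided) on all 18 arrays without a block, with Benjamini-Hochberg adjustment over all probe sets tested. All standard errors and adjusted p-values of differences are limma's. Rat numbers pair the arrays because both came from the same animal. As a check, deviations from region means had a correlation within rats of 0.000945 to 0.569, with a median of 0.226 and 6 of 9 above 0.1. At most 0.00644% of values were identical between 2 arrays. Relations over rats were adjusted over all genes rather than over the members as first planned. Scripts were tested on simulated data.

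Members, lists and tests were chosen with earlier results of these data known. Lowest, median and highest values are given for members past an adjusted p of 0.05 with 1 direction in at least 8 of 9 rats, and up to 3 genes that passed are named per further list. Alternatives were the deposited scaling, median centring, pseudocounts of 1 and 64, no filter, a 50% filter, the mean of probe sets, the rat as a block, and leaving out rats or arrays. Promoter sequences are RefSeq's. Other values were computed in Python 3.11.15 (numpy 2.4.6, pandas 2.3.3, matplotlib 3.10.9).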

Additional observations from a re-analysis of the deposited data

Results flagged for a closer look

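In 6 of the 66 groups of 9 values (33 genes in 2 regions), the highest or lowest rat lay apart from the next by more than the share of the range that Dixon's critical value allows. For normally distributed values in independent groups, chance gives about 1 such group in 20. These groups share arrays and so are not independent, and the share over all genes is not given here. Rat 3 had the highest value for 20.3% of all genes in proximal and 18.9% in distal colon. Sqle was highest in rat 4 in distal colon, at 9.10 against 8.61 in the next rat. Nsdhl was also highest in rat 4 in distal colon, at 9.26 against 8.98. Fads1 was highest in rat 3 in proximal colon, at 8.29 against 6.78. Fads2 was lowest in rat 6 in proximal colon, at 4.55 against 5.41. Acaca was highest in rat 3 in both regions, at 9.03 against 8.52 in proximal colon and at 8.73 against 8.31 in distal colon.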

How the results depend on the processing

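The 15 members that passed were recomputed under 19 alternatives. Of 284 values, 271 kept their direction and their side of the threshold, 13 kept the direction but did not pass, and 0 turned. The 11 members other than Sqle, Hsd17b7, Tm7sf2 and Stard4 passed in every alternative in which they were tested, and Fads2 was not tested when the lowest 50% were left out. With the rat as a block, which uses the pairing of arrays within a rat, 13 members passed towards proximal and 5 towards distal colon, as did 9 isoprenoid and sterol enzymes towards proximal colon, and 6 and 7 of the further genes. The block changed the call of no member other than Lss, Dhcr7 and Acaca. Over the fits without 1 rat, members numbered 10 to 13 towards proximal and 4 to 5 towards distal colon. The shares of all genes in these fits were 12.5% to 15.6% and 13.9% to 16.6%. The deposited scaling gave 3 members and 1 further gene higher in distal colon, and 14 enzymes with rat 4 as the highest proximal value. For the relation over rats, 2 members had a raw exact permutation p below 0.05 with that scaling, for which the share of all genes is not given. Median centring gave 3 further genes higher in proximal colon (against 10.7% of all genes) and 8 enzymes with rat 4 as the highest proximal value (against 7.34%). Leaving out the 2 farthest rats left 1 member with a raw exact permutation p below 0.05. In the main setting 0 members passed for this relation after adjustment. Some differences near 0 turned sign. With the deposited scaling they were Pmvk (-0.0791), Nsdhl (-0.050), Srebf1 (-0.0079) and Srebf2 (-0.0214), with median centring Ebp (0.0235), and with the mean of probe sets Scap (0.0273). Without rats 3 and 6 in proximal colon they were Pmvk (-0.0167) and Nsdhl (-0.0594), and without the 3 arrays of highest smooth muscle score Pmvk (-0.0041) and Nsdhl (-0.0235). Leaving out 1 rat at a time gave -0.0336 to 0.0339 for Pmvk, -0.135 to 0.0028 for Mvd and -0.0251 to 0.0711 for Nsdhl. The cause of these changes was not tested. Signal near background limits Fads1 and Fads2 most.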

Other observations

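The rats fell into 2 clusters for Abca1, the sterol exporter that LXR controls, through some of its probe sets only. With 1 probe set, rats 2, 3, 6 and 10 had log2 signals of 8.00 to 9.36 in proximal and 8.09 to 8.92 in distal colon, and the other 5 rats 6.13 to 6.51 and 6.46 to 6.97. A second probe set split the same rats, at 6.72 to 8.40 and 7.13 to 7.54 against 5.73 to 6.38 and 6.09 to 6.78. The other 2 Abca1 probe sets overlapped between these rats in both regions. The clusters were seen in the values, are not groups of the study, and were not compared.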
